A study of Mus musculus with 6 samples.

Results

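The 10 genes described here encode acute phase proteins of the blood plasma other than the serum amyloid A proteins and the orosomucoids: A2m, Hp, Hpx, Cp, Itih3, Itih4, Apcs and Crp, which are known to rise in the acute phase, and Ttr and Alb, which are known to fall. They were chosen by name among 18194 genes to which the platform annotation gives a probe set of their own, and every probe set whose only symbol is one of the 10 was taken. That gave 20 probe sets, 8 of them for Cp, 4 for Ttr and 1 for each of the other 8 genes. Of these, 19 were bright enough on average over the 6 arrays to be tested, and 1 Cp probe set was not.

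The acute phase response is the change in plasma proteins made by hepatocytes when tissue is injured or infected. Interleukin-6 acts on hepatocytes through its receptor, the shared subunit gp130 and the transcription factor STAT3, and interleukin-1 acts through NF-kappaB and C/EBP factors. Together they raise the genes of positive acute phase proteins, while messages of carrier proteins such as albumin and transthyretin are known to decline. In mice serum amyloid P component, the product of Apcs, is the pentraxin known to respond most, whereas C-reactive protein, the leading human marker, responds little.

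The livers came from 3 mice lacking sphingosine 1-phosphate (S1P) lyase, the enzyme of the gene Sgpl1 that ends sphingolipid breakdown, and from 3 wild-type (WT) mice. All 6 animals had a mixed background of the C57BL6 and 129sv strains and received no treatment. Age, sex, litter, diet and the construction of the knockout allele are not given in the labels. RNA from whole liver was labelled with biotin and hybridised to 1 array per animal, so that fewer cells of a type and less RNA per cell cannot be told apart.

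The genotype labels fitted the targeted gene: the brighter Sgpl1 probe set read 2.46, 2.99 and 2.87 log2 in the knockout livers and 6.65, 6.90 and 6.71 in the WT livers. The tissue label fitted too, since hepatocyte markers averaged 11.02 to 11.37 log2 in knockout and 11.44 to 11.73 in WT over the 14 tested. Of these 14, 6 fell in knockout and 0 rose, beside 7.85% and 10.3% of all genes. The 24 probe sets of bacterial poly-A RNAs, which are added before labelling, averaged 8.52 to 9.07 in knockout and 7.99 to 8.08 in WT. Signal at the 3' minus the 5' end of Actb was 1.12 to 1.45 in knockout and 0.81 to 0.97 in WT. Values were therefore also read with each array centred on these poly-A controls (the poly-A scale) or on the hepatocyte markers (the hepatocyte scale). Such centring shifts every probe set of an array by the same amount, so all of them share the error of that shift. Calls on these 2 scales therefore do not measure the spread between animals as those on the deposited scale do. For A2m the SE rose from 0.17 as deposited to 0.26 on the poly-A scale, while the limma adjusted p went from 1.73e-05 to 3.80e-35. The part of either control difference in the results below was not tested, and having only 3 arrays a group limits how precise each value is.

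Most of the positive acute phase genes rose on the deposited scale. On the poly-A scale 1 of the 10 genes rose and 4 fell, beside 2.79% of all genes that rose and 75.4% that fell there. By the brightest probe set of each gene, 6 of the 10 rose (A2m, Cp, Hp, Apcs, Itih3 and Hpx), 1 fell (Ttr) and 3 did not pass the test (Itih4, Crp and Alb). Over all genes read in this way 10.3% rose and 7.85% fell. Among the 19 tested probe sets 11 rose, 4 fell and 4 did not pass, beside 10.1% that rose and 7.82% that fell over all 27022 probe sets tested (limma, Benjamini-Hochberg adjusted p under 0.05). The 11 that rose were also those in which every knockout value lay above every WT value, a pattern seen in 18.8% of all tested probe sets. The 4 that fell had every knockout value below every WT value, as did 21.2% of all. Of the 11 that rose, 6 belong to Cp, and the 4 that fell all belong to Ttr, so these probe sets are not independent of each other. The median difference of the 10 genes was 0.60 log2, beside -0.05 over all genes read in the same way.

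**Figure D1:**
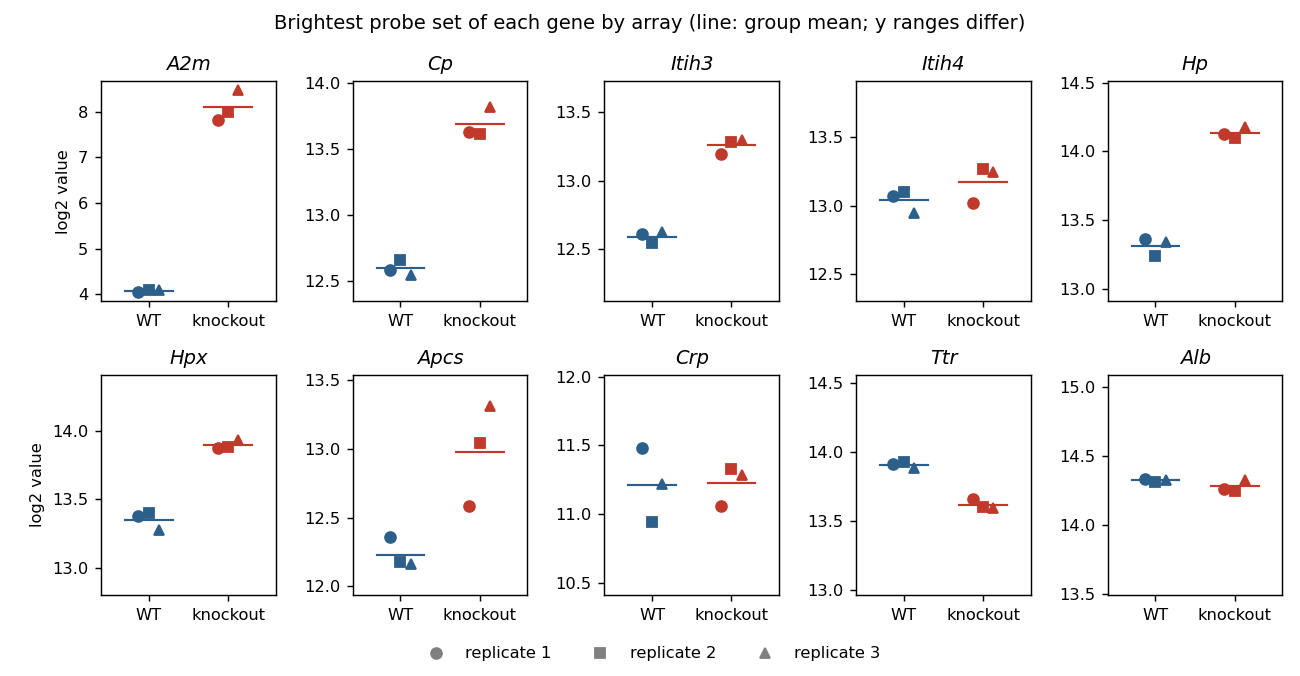
Log2 values of the brightest probe set of each of the 10 genes, 1 point per array and a line at the group mean (3 WT and 3 knockout livers, symbol shape for the replicate); each panel has its own y range. A2m, Cp, Itih3, Hp, Hpx and Apcs show every knockout value above every WT value on the deposited scale, Ttr shows the reverse, and Itih4, Crp and Alb overlap. When arrays are centred on poly-A controls, the means of Itih3, Hpx and Apcs are no longer higher. Cp (0.34 log2) and Hp (0.07) are then higher on average without passing the test. Ttr is no longer lower when arrays are centred on hepatocyte markers.

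The protease inhibitors come first. A2m encodes an alpha-2-macroglobulin, which traps proteases of many kinds in a cage. It read 7.82, 8.01 and 8.48 log2 in the knockout livers and 4.04, 4.09 and 4.08 in the WT livers. All knockout livers were thus far above all WT livers, and the WT values lay only a little above the cutoff for dim probe sets, 3.58 log2. The difference was 4.03 log2 (SE 0.17, limma adjusted p = 1.73e-05), a 16.4-fold rise with a 95% confidence interval of 12.4 to 21.5. A WT value this close to the dim range can hold background signal, which lowers a fold. A2m ranked 18th among the 27022 tested probe sets when ordered by rise. It was also higher on every scale of the arrays tried, at 3.28 log2 or more.

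No other tested gene of the A2m family passed the test on the deposited scale. Pzp, which encodes a related macroglobulin of mouse plasma, read 13.08, 13.16 and 13.14 log2 in knockout and 12.95, 13.16 and 13.04 in WT. Its difference of 0.08 log2 (SE 0.08, limma adjusted p = 0.553) did not pass the test, and the groups overlapped. Mug1, which encodes murinoglobulin, differed by -0.35 log2 and Cd109, a membrane-bound member, by -0.10, and neither passed, though Mug1 did without WT replicate 3 (-0.50, adjusted p = 0.0331). The family's 3 tested genes had a median of -0.10 log2, and on the poly-A scale all 3 were lower, Pzp at -0.67.

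Itih3 and Itih4 encode heavy chains of the inter-alpha-trypsin inhibitor family, proteins that bind hyaluronan in the extracellular matrix. Itih3 read 13.20, 13.28 and 13.30 log2 in knockout and 12.61, 12.55 and 12.62 in WT, with no overlap. It rose by 0.66 log2 (SE 0.08, limma adjusted p = 0.00121), or 1.59-fold, on the deposited scale, and was -0.08 on the poly-A scale. Itih4 read 13.02, 13.26 and 13.24 in knockout and 13.07, 13.10 and 12.95 in WT. The first knockout liver lay within the WT range, and the difference of 0.14 log2 (95% confidence interval -0.08 to 0.35, adjusted p = 0.339) did not pass. Itih4 was lower on the poly-A scale, at -0.61, which passed there (adjusted p = 0.00562) with the limit on such calls given above.

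Itih4, Itih3 and Itih1 lie next to each other on chromosome 14 with no annotated gene between them. Itih1 read 10.42, 10.71 and 10.54 log2 in knockout and 10.88, 11.00 and 10.84 in WT. All its knockout values lay below all WT values, but the difference of -0.35 log2 (SE 0.11, limma adjusted p = 0.0607) did not pass. Of the rest of the family, Itih2 differed by 0.13 log2, Itih5 by 0.17 and Ambp, which encodes the light chain bikunin, by 0.24, and none of them passed. On the poly-A scale Itih2 was at -0.62, Itih5 at -0.58 and Ambp at -0.51. In each array the Itih3 value minus the Itih4 value was 0.18, 0.02 and 0.05 log2 in knockout and -0.46, -0.55 and -0.32 in WT. The response of Itih3 therefore exceeded that of Itih4 by 0.53 log2, with every knockout array apart from every WT array (two-sided exact permutation p = 0.1, the lowest that a design of 3 against 3 can give). A difference taken within an array is the same on every centring of the arrays.

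The start regions of both genes are printed to show how 2 neighbours with unequal responses compare in sequence. RefSeq windows of the build GRCm38.p6, from 250 bases before to 50 after the annotated start, were matched for 7 of the 10 genes, with 2 windows for Cp. Capitals mark matches on either strand to 4 short motifs: TTNNGNAA, bound by C/EBP factors, CTGGGAA and TTCNNNGAA, of the kind bound by STAT factors, and GTTAAT, a part of the site of HNF1. Itih3 is on the minus strand at chr14:30923538-30923837 and Itih4 on the plus strand at chr14:30886226-30886525.
Itih3: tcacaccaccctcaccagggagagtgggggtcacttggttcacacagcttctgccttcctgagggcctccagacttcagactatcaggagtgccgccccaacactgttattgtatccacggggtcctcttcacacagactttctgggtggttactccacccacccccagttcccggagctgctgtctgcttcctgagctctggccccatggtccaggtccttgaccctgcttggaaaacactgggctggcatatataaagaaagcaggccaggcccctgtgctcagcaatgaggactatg
Itih4: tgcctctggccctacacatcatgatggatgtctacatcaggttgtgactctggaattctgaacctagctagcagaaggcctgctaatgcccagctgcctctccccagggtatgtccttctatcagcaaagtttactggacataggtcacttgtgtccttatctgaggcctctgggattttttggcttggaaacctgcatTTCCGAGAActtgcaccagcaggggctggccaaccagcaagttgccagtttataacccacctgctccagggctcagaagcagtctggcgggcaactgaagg
The Itih3 window held 0 matches to the 4 motifs. The Itih4 window held 1, to TTCNNNGAA, which 8.3% of 32851 windows of all genes hold. A match is a description of the letters only, and no match says nothing of a factor outside this window.

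Ceruloplasmin, haptoglobin and haemopexin handle metals and haem. Cp encodes ceruloplasmin, the copper protein of plasma that oxidises iron. Its brightest probe set read 13.63, 13.61 and 13.82 log2 in knockout and 12.58, 12.65 and 12.54 in WT, so that all knockout livers were higher. It rose by 1.09 log2 (SE 0.09, limma adjusted p = 0.000235), or 2.13-fold. Of 7 tested Cp probe sets, 6 rose, by 0.85 to 1.37 log2, and all of these 6 were above 0 on each scale tried. On the poly-A scale 3 of the 6 no longer passed: the brightest, 1417494_a_at, at 0.34 log2 (adjusted p = 0.119), 1417495_x_at at 0.15 (0.513) and 1448734_at at 0.10 (0.674). The steepest of them, 1441326_at, also varied most: it read 7.38, 8.24 and 8.84 log2 in knockout and 7.10, 6.64 and 6.61 in WT. Its rise of 1.37 log2 (SE 0.33, adjusted p = 0.026) no longer passed without knockout replicate 2 (adjusted p = 0.0899), WT replicate 2 (0.0699) or WT replicate 3 (0.0598).

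The other 2 Cp probe sets were dim and did not move with the rest. 1417497_at read 4.39, 4.13 and 4.15 log2 in knockout and 4.38, 4.37 and 4.41 in WT, a difference of -0.16 that did not pass (limma adjusted p = 0.349), though on the poly-A scale it was at -0.91 and did (adjusted p = 0.000636). 1448735_at, left out as dim, read 3.83, 3.25 and 3.56 in knockout and 3.32, 3.43 and 3.20 in WT. The annotation lists both under the same source sequence as 4 of the Cp probe sets that rose, and the part of the transcript that each one reads was not analysed here.

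**Figure D2:**
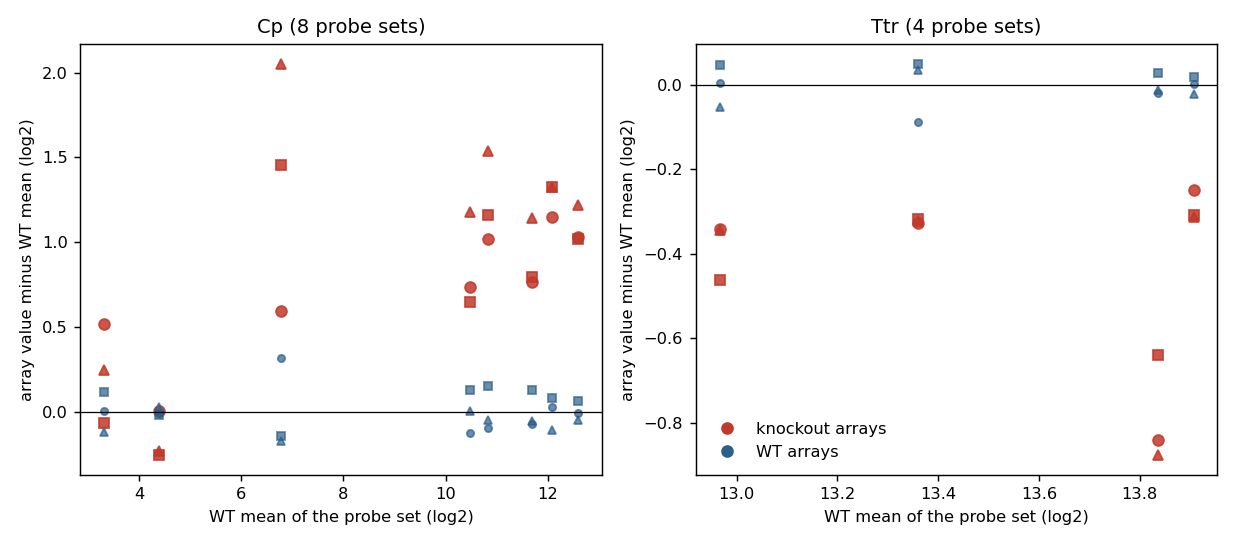
Value of each array minus the WT mean of its probe set (y axis, log2) against that WT mean (x axis, log2) for the 8 Cp and 4 Ttr probe sets; large red symbols are knockout arrays, small blue ones WT arrays, and the shape gives the replicate. The 6 Cp probe sets with WT means of 6.78 or more rose on the deposited scale while the 2 dimmest did not; the 4 Ttr probe sets lie below 0 in every knockout array, 1451580_a_at furthest at -0.79 on average, while on the hepatocyte scale 1454608_x_at and 1459737_s_at lie slightly above 0 (0.05 and 0.02).

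Hp encodes haptoglobin, which captures haemoglobin set free from red cells. It read 14.13, 14.10 and 14.18 log2 in knockout and 13.37, 13.24 and 13.34 in WT, without overlap. Hp rose by 0.82 log2 (SE 0.07, limma adjusted p = 0.000374), or 1.76-fold with a 95% confidence interval of 1.57 to 1.98. The highest Hp value lay 0.15 log2 under the highest value on its own array, near the top of the recorded range, where a signal has little room to rise further. Hp was 0.07 log2 higher on the poly-A scale, which did not pass (adjusted p = 0.747). Haptoglobin is also stored in granules of neutrophils, whose markers rose in 9 of 10 cases, with a list mean of 8.85 to 9.13 log2 in knockout and 5.44 to 5.69 in WT. Over all genes 10.3% rose. The neutrophil marker that did not pass was Cxcr2 (4.75 against 4.57 log2). Knockout replicate 3 had the highest Hp value and the lowest neutrophil mean of the knockouts. The knockout Hp values lay close together near the top of the range, so this order says little. The part of neutrophils in the Hp rise was not tested.

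Hpx encodes haemopexin, which binds free haem and carries it to the liver. It read 13.87, 13.88 and 13.93 log2 in knockout and 13.38, 13.40 and 13.27 in WT, again with no overlap. Hpx rose by 0.54 log2 (SE 0.07, limma adjusted p = 0.00224), or 1.46-fold, as deposited, and was at -0.21 on the poly-A scale. The rise of Hp exceeded that of Hpx by 0.27 log2, with each knockout array above each WT array in the difference of both genes (two-sided exact permutation p = 0.1, the lowest possible here).

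Genes that act on the cargo of these proteins moved both ways. Cd163, the macrophage receptor that takes up haptoglobin bound to haemoglobin, read 3.16, 3.15 and 3.33 log2 in knockout and 4.32 at the lowest in WT (mean 5.24), and fell by 2.02 (limma adjusted p = 0.00742). Its knockout values lie in the range of dim probe sets, so the 4.06-fold difference is limited by background. Hmox1, the enzyme that opens the haem ring, rose 3.48-fold, from 6.27, 6.92 and 7.24 log2 in WT to 8.72, 8.51 and 8.59 in knockout (adjusted p = 0.00184). Tfrc, the receptor for iron-loaded transferrin, rose by 1.99 log2 (SE 0.48, adjusted p = 0.0247), a call lost without knockout replicate 1 (adjusted p = 0.0922), knockout replicate 2 (0.0814) or WT replicate 1 (0.0627). Of 3 tested Tfrc probe sets, this brightest one was the only one that rose. Lrp1, through which haemopexin with haem is taken up, was 0.48 log2 higher and did not pass (adjusted p = 0.0851), except without WT replicate 1 (adjusted p = 0.0214). The other of 2 tested Lrp1 probe sets did pass, in a direction not read here. In the whole list 2 of 7 tested genes rose, 1 fell and 4 did not pass, beside 10.3% and 7.85% of all genes that rose and fell. Of the 9 tested Kupffer cell and macrophage markers, 3 rose and 3 fell, with list means of 8.04 to 8.20 log2 in knockout and 7.72 to 8.31 in WT. The 3 that rose did so by 2.22-fold to 8.10-fold, and the 3 that fell by 2.49-fold to 7.04-fold. The overlapping means thus do not show that the markers were unchanged, and their part in the Cd163 value was not tested.

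The pentraxins differed from each other. Apcs encodes serum amyloid P component, a calcium-dependent binder of amyloid, chromatin and bacterial surfaces. It read 12.58, 13.04 and 13.31 log2 in knockout and 12.36, 12.17 and 12.16 in WT. All knockout livers were higher than all WT livers, though replicate 1 by little. Apcs rose by 0.75 log2 (SE 0.17, limma adjusted p = 0.0206), or 1.68-fold, as deposited, and was at -0.0026 on the poly-A scale. Its rise no longer passed without knockout replicate 2 (0.72 log2, adjusted p = 0.0782) or WT replicate 2 (0.72, adjusted p = 0.0561).

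Crp encodes C-reactive protein, which opsonises bacteria and damaged cells. It read 11.06, 11.33 and 11.28 log2 in knockout and 11.48, 10.94 and 11.22 in WT, so the WT livers alone spanned a wider range than the knockouts. The difference was 0.01 log2 with a 95% confidence interval of -0.33 to 0.35 (limma adjusted p = 0.972). The interval thus reaches from -20.5% to 27.3%. Crp was lower on the poly-A scale, at -0.74 log2 (adjusted p = 0.00234). Within arrays, Apcs minus Crp was 1.52, 1.71 and 2.03 log2 in knockout and 0.87, 1.23 and 0.94 in WT. The response of Apcs exceeded that of Crp by 0.74 log2, without overlap of the arrays (two-sided exact permutation p = 0.1, the lowest possible here). With 4 such pairs of genes compared, the adjusted value is also 0.1 for each. The remaining pentraxin tested, Nptx1, differed by -0.12 log2 and did not pass (adjusted p = 0.514).

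The start regions of both pentraxin genes are printed, chosen after their responses and motifs were seen to differ. A link between the motifs and the responses was not tested. Apcs is on the minus strand at chr1:172895005-172895304 and Crp on the plus strand at chr1:172697806-172698105, in the RefSeq build GRCm38.p6, with capitals as above.
Apcs: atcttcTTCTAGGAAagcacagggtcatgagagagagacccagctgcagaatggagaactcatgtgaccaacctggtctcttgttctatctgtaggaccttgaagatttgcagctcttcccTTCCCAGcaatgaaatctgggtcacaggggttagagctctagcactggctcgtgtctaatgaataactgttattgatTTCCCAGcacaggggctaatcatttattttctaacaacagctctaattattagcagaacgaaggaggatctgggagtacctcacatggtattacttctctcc
Crp: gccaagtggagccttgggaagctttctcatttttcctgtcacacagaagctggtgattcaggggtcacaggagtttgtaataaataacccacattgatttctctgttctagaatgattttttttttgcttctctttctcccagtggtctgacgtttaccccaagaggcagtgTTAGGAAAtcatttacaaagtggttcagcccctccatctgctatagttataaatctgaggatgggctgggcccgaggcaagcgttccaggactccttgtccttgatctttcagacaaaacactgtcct
The Apcs window held CTGGGAA on its reverse strand in 2 places, with the first base at -129 and at -52 from the start, and TTCNNNGAA at -244. CTGGGAA occurs in 11.1% of all windows and was found in 1 of the 8 windows of these genes. The Crp window held TTNNGNAA at -78, a motif of 40.7% of all windows and of 5 of these 8. GTTAAT was found in 2 of the 8 windows, those of Alb and of the upstream Cp start, beside 7.1% of all windows. No match overlapped another motif.

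Transthyretin and albumin are the carriers known to decline in the acute phase. Ttr encodes transthyretin, which carries thyroxine and the retinol-binding protein. All 4 Ttr probe sets fell, in every case with all knockout livers below all WT livers. 1451580_a_at fell the most: it read 12.99, 13.20 and 12.96 log2 in knockout and 13.82, 13.87 and 13.83 in WT. Its difference was -0.79 log2 (SE 0.09, limma adjusted p = 0.000987), or 1.72-fold lower. The brightest, 1454608_x_at, read 13.66, 13.60 and 13.59 in knockout and 13.91, 13.93 and 13.89 in WT. It fell by 0.29 log2 (SE 0.07, adjusted p = 0.0215), or 1.22-fold. The remaining probe sets, 1459737_s_at and 1455913_x_at, differed by -0.32 and -0.38.

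The 4 Ttr probe sets thus agreed in direction and not in size, and their 95% confidence intervals reached from -0.98 to -0.59 in 1451580_a_at and from -0.44 to -0.14 in 1454608_x_at. The suffixes of all 4 mark probe sets that can read several transcripts. The smaller falls lost the call with single arrays left out, while the differences themselves moved little, from -0.31 to -0.28 in 1454608_x_at, from -0.37 to -0.30 in 1459737_s_at and from -0.41 to -0.34 in 1455913_x_at. Of these, 1454608_x_at had an adjusted p of 0.0774 without knockout replicate 2, 0.0727 without WT replicate 1 and 0.0626 without WT replicate 2. 1459737_s_at had 0.0688 and 0.0736 without knockout replicate 1 or 2, and 0.0703 and 0.0511 without WT replicate 2 or 3. 1455913_x_at had 0.0626 without knockout replicate 2 and 0.051 without WT replicate 1. With all arrays, 1454608_x_at had 0.0503 after quantile normalization and 0.0832 without the intensity trend, and 1459737_s_at had 0.0637 and 0.0679. On the hepatocyte scale none of these 3 passed: 1454608_x_at was at 0.05 log2 (adjusted p = 0.815), 1459737_s_at at 0.02 (0.939) and 1455913_x_at at -0.04 (0.875). The fall of 1451580_a_at passed under every filter, scale and left-out array tried, with -0.44 log2 on the hepatocyte scale as its smallest value.

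Alb encodes albumin, the main protein of plasma. It read 14.26, 14.25 and 14.33 log2 in knockout and 14.33, 14.31 and 14.33 in WT. The difference of -0.05 log2 (95% confidence interval -0.19 to 0.10, limma adjusted p = 0.639) did not pass. Its signal was the highest on 4 of the 6 arrays and within 0.06 log2 of the highest on all of them. At the top of the recorded range an array can hide a change, so these values bound neither a rise nor a fall of the albumin message itself. On the poly-A scale Alb was lower, at -0.80 (adjusted p = 0.000205), and on the hepatocyte scale it was 0.30 higher and did not pass. Within arrays, the Ttr signal minus the Alb signal was lower in knockout by 0.24 log2 with the brightest probe sets and by 0.40 with the mean of the Ttr probe sets. The arrays did not overlap in either case (two-sided exact permutation p = 0.1, the lowest possible here). With Alb at the top of the range, these values compare signals and do not show which message fell more. Of the other albumin genes, Afm, which encodes afamin, fell by 1.23 log2 (SE 0.15, adjusted p = 0.00175). Afp, the fetal albumin, read 8.23, 6.11 and 4.92 log2 in knockout and 5.06, 4.45 and 5.02 in WT, and did not pass (adjusted p = 0.15), except without knockout replicate 3 (2.32 log2, adjusted p = 0.0308). Of 4 tested Afp probe sets, 2 besides this one did not pass, while the remaining probe set did pass, in a direction not read here.

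**Figure D3:**
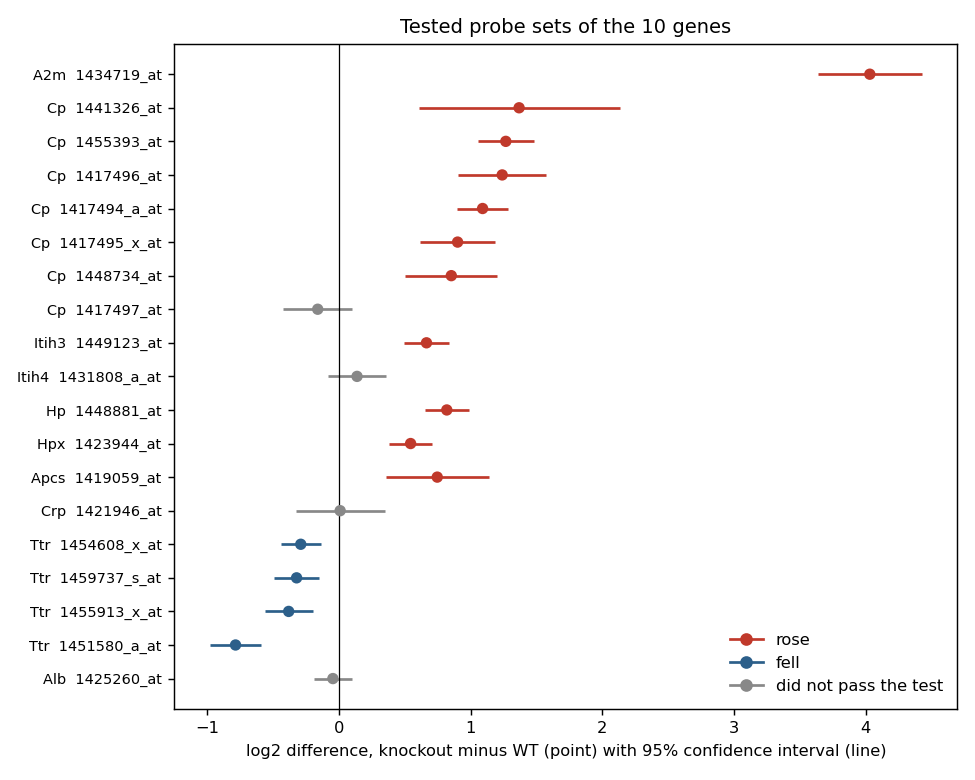
Log2 difference, knockout minus WT, of the 19 tested probe sets on the deposited scale, with lines for the 95% confidence interval of the limma fit. A2m stands at 4.03, the Cp probe sets that rose between 0.85 and 1.37, Itih3, Hp, Hpx and Apcs between 0.54 and 0.82, and the 4 Ttr probe sets between -0.79 and -0.29. Centring on poly-A controls lowers every point by 0.749 and turns Itih3, Hpx, Apcs, Crp and Itih4 below 0. Centring on hepatocyte markers raises every point by 0.342 and turns 2 Ttr probe sets, Alb and Cp 1417497_at above 0.

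Among the knockout livers the order was alike in the probe sets that rose. Replicate 3 was the highest of the knockouts in all 11, while replicate 1 was the lowest in 8 and replicate 2 in 3. The other positive acute phase genes had list means of 10.97, 11.56 and 12.07 log2 in knockout replicates 1, 2 and 3. The poly-A controls ran the other way, at 9.07, 8.75 and 8.52, as did the hepatocyte markers, at 11.37, 11.27 and 11.02. With 3 animals this order was not tested.

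The genes around these members in the acute phase response were then counted, from lists drawn up with earlier results of these data known. Of 21 tested positive acute phase genes outside the 10, 16 rose, 0 fell and 5 did not pass, with a median of 2.05 log2, beside 10.3% of all genes that rose and a median of -0.05. Of the 21, 15 rose and 3 fell on the poly-A scale, beside 2.79% and 75.4% of all genes there. Orm2, an orosomucoid, read 4.40, 4.59 and 3.37 log2 in WT, near or below the cutoff for dim probe sets, so its rise of 133-fold is limited by background. Lcn2, which withholds iron from bacteria, rose 61.9-fold and Saa3, a serum amyloid A protein, 51.7-fold. Cd14, the co-receptor for lipopolysaccharide, rose 15.7-fold. Those that did not pass include all 3 fibrinogen chains, Fga, Fgb and Fgg, at 0.26, 0.37 and 0.28 log2 (limma adjusted p = 0.0913, 0.0519 and 0.0706); on the poly-A scale Fga and Fgg fell, with -0.49 and -0.47. Hamp, which encodes the iron hormone hepcidin, was at -1.46 (SE 1.22) and did not pass.

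Of 13 tested genes of other negative acute phase proteins, 5 fell, 1 rose and 7 did not pass, with a median of -0.14 log2, beside 7.85% of all genes that fell. Pon1, an esterase of high-density lipoprotein, fell by 0.90 log2 (SE 0.08, limma adjusted p = 0.000334). Igfals, which holds insulin-like growth factors in plasma, fell by 2.67, and Igf1 itself by 0.91 (adjusted p = 0.0119, and 0.0511 without knockout replicate 1). Serpina7, which encodes the thyroxine-binding globulin, was the one that rose, by 1.98 log2 (SE 0.34, adjusted p = 0.00697). Ttr, whose product also carries thyroxine, fell on the deposited scale. The count of falls was 2 without knockout replicate 1 and 3 without WT replicate 1.

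Of 17 tested receptor, kinase, factor and inhibitor genes of interleukin-6 and interleukin-1 signalling, 8 rose, 1 fell and 8 did not pass, with a median of 0.40 log2, beside 10.3% and 7.85% of all genes that rose and fell. On the poly-A scale 4 rose and 7 fell, beside 2.79% and 75.4% of all genes. Il6, the ligand itself, was too dim to be tested. Cebpd, a C/EBP factor of the acute phase, read 7.82, 7.68 and 7.69 log2 in knockout and 5.43, 4.91 and 5.61 in WT, a 5.34-fold rise (limma adjusted p = 0.000204). Of 2 tested Cebpd probe sets, this brightest one was the only one that rose. Stat3 read 9.64, 9.97 and 10.19 in knockout and 8.98, 9.01 and 8.88 in WT and rose 1.96-fold (adjusted p = 0.00421), or by 0.22 log2 on the poly-A scale, which did not pass (adjusted p = 0.387). Of 4 tested Stat3 probe sets, only 2 besides this one rose. Socs3, the inhibitor that STAT3 induces, rose 4.31-fold, and Osmr, the receptor subunit for oncostatin M, 5.12-fold. Il6ra, the interleukin-6 receptor, was 1.05 log2 higher without passing (adjusted p = 0.0502, and 0.0109 without WT replicate 3), and Cebpa, a C/EBP factor of resting hepatocytes, was at 9.69 against 10.29 log2, which did not pass either (adjusted p = 0.0622, and 0.0387 without knockout replicate 2).

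Markers of other liver cells were counted in the same libraries. B cell markers rose in 3 of 3 tested cases (list mean 6.36 to 6.71 log2 in knockout, 4.61 to 4.87 in WT), and of 2 erythroid markers Slc4a1 rose. Of 5 endothelial markers 1 rose and 1 fell (7.39 to 7.62 against 7.30 to 7.40), and of 5 stellate cell markers 2 fell and 0 rose (7.11 to 7.16 against 7.44 to 7.75). Over all genes 10.3% rose and 7.85% fell. The part of these cells in the values of the 10 genes was not tested.

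**Figure D4:**
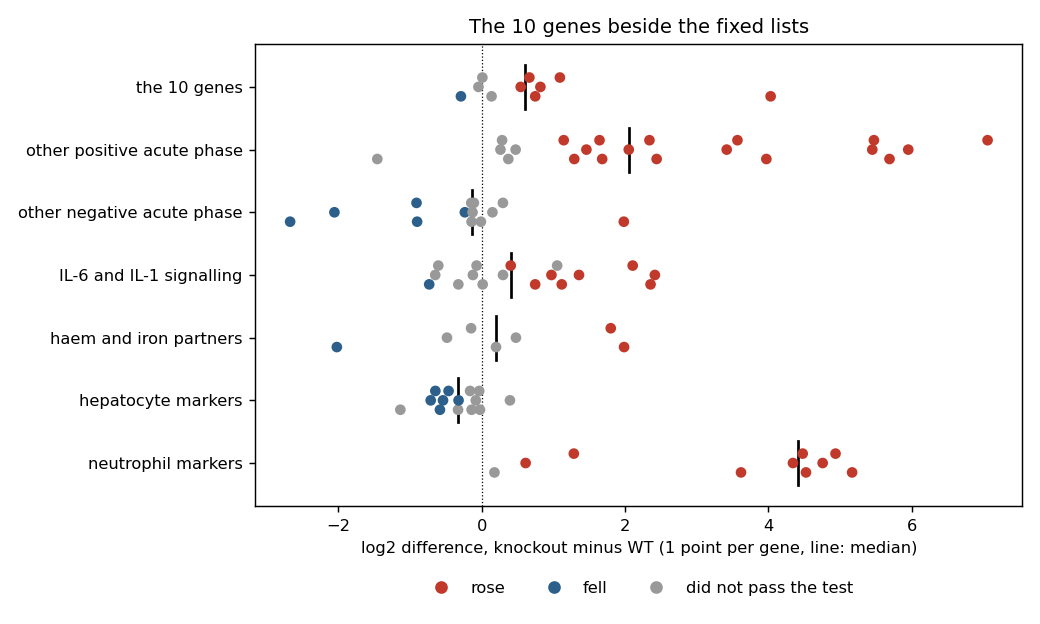
Log2 difference, knockout minus WT, of each tested gene by its brightest probe set on the deposited scale, for the 10 genes and 6 fixed lists; colour gives the result of the limma test and black lines the medians. The 10 genes have a median of 0.60, other positive acute phase genes 2.05, other negative ones -0.14, interleukin signalling 0.40, haem and iron partners 0.20, hepatocyte markers -0.33 and neutrophil markers 4.41; centring on poly-A controls lowers all points by 0.749, which takes the medians of the 10 genes, the interleukin list and the haem and iron list below 0, while centring on hepatocyte markers raises them by 0.342, which takes those of the other negative genes and the hepatocyte markers above 0.

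The size of these differences depended on how the arrays were scaled, as their directions did in part. Centring on the poly-A controls moved the median of all tested probe sets from -0.04 to -0.79 log2, and then 619 probe sets rose and 20409 fell. These calls share the error of 1 shift per array, as stated above. On that scale A2m and 3 Cp probe sets rose among the 19, and 8 fell, beside 2.29% and 75.5% of all probe sets. Centring on hepatocyte markers moved the median to 0.30, with 11 of the 19 rising and 1, Ttr 1451580_a_at, falling, beside 22.0% and 1.62% of all probe sets. By brightest probe sets 6 of the 10 genes rose there and 0 fell, beside 21.4% and 1.79% of all genes. Quantile normalization and centring on array medians moved the median of all probe sets by 0.05 log2 or less and left 11 rises. Relative to the median of all probe sets, and to each other, the differences are the same on every centring.

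**Figure D5:**
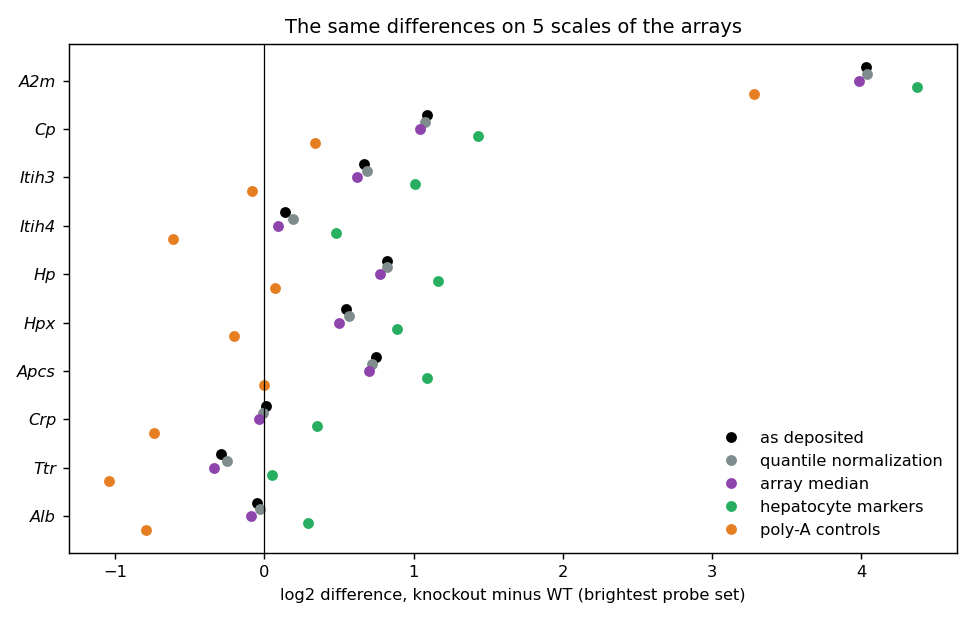
Log2 difference, knockout minus WT, of the brightest probe set of each of the 10 genes on 5 scales: as deposited, after quantile normalization, and with arrays centred on their median, on hepatocyte markers or on poly-A controls. A2m stays at 3.28 or more and Cp at 0.34 or more on every scale. Itih3, Hpx, Apcs, Crp and Itih4 turn below 0 with poly-A controls. With hepatocyte markers Ttr turns from -0.29 as deposited to 0.05, and Alb from -0.05 to 0.30.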

How the data were processed

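Liver RNA of 3 S1P lyase knockout and 3 wild-type mice was measured on 6 Affymetrix arrays, 1 per animal. The values used are those the authors deposited, on the log2 scale, 1 per probe set and array. The base was taken from their range of 1.68 to 14.33, since powers of another base would exceed a 16-bit scanner. MAS5 is named in the submitters' processing notes without version or role, while how background was corrected and probes were scaled and summarized is not stated there. The scaling, centring and detection calls therefore stay unknown, while the direction follows from the genotype labels.

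Of 45101 probe sets, 64 array controls were dropped, as were dim ones with a 6-array mean below the 40th percentile (3.58 log2), so 27022 were tested. The fit used limma 3.58.1 in R 4.3.3 (lmFit, eBayes with intensity trend, two-sided, no covariates), with Benjamini-Hochberg adjustment over all 27022. "Rose" and "fell" mean an adjusted p under 0.05. The fit was tested on simulated data, where it called 4.07% of changes of 0.5 log2, 59.8% of 1 log2 and 93.9% of 2 log2. Of the simulated calls 3.42% fell on unchanged probe sets. A small difference that did not pass is therefore not a sign of no change.

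A platform annotation gave 34958 probe sets exactly 1 symbol, 932 several and 9211 none. The 10 genes, 15 lists and all tests were chosen with earlier results of these data known. Each listed gene was read by its brightest tested probe set, and 116 of 136 listed genes were tested. All 10 genes are named, with every tested gene of the family lists and up to 4 genes of each other list with the smallest adjusted p. Of the cell type marker lists only Slc4a1 and Cxcr2 are named, and the rest are counted. Cebpa, Il6ra, Hamp, Cxcr2, Fga, Fgb and Fgg were named after their values were seen. Single values per array were compared by exact permutation, where a two-sided p cannot go below 0.1. Other filters, scales, weights, gene summaries and each array left out were tried.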

Additional observations from a re-analysis of the deposited data

Results flagged for a closer look

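Control probe sets, which read no gene of the comparisons above and served there only to centre the arrays or describe them, differed with genotype. The poly-A control RNAs were 0.749 log2 higher in the knockout arrays. For Actb the 3' signal exceeded the 5' signal by 0.447 log2 more in knockout than in WT. The same measure was 0.465 log2 higher for Gapdh and 1.01 log2 higher for Pcx. In each of these 4 measures the knockout and WT arrays did not overlap (two-sided exact permutation p = 0.1, the lowest that a design of 3 against 3 can give).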

How the results depend on the processing

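Of 285 values of the 19 tested probe sets under other settings, 253 kept their direction and their side of the threshold or changed sign while not passing in both settings. Another 23 lost the call, 2 gained it and 7 changed sign while passing in either setting. These 7 were, with arrays centred on poly-A controls, Apcs (-0.0026), Crp (-0.74), Hpx (-0.21), Itih4 (-0.61) and Itih3 (-0.084), and, with hepatocyte markers, Ttr 1454608_x_at (0.052) and 1459737_s_at (0.020). Of 557 values of the 35 other named genes, 512 kept direction and side, or changed sign while not passing in both settings. Another 31 gained the call, 7 lost it and 7 changed sign while passing in either setting. The 7 with such a change of sign were all on the poly-A scale: Fga (-0.49), Fgg (-0.47), Ambp (-0.51), Pzp (-0.67), Itih2 (-0.62), Itih5 (-0.58) and Cxcr2 (-0.57). On that scale 4 of the 19 probe sets rose and 8 fell, 1 of the 10 genes rose and 4 fell, 3 other positive and 11 other negative acute phase genes fell, and over all probe sets 619 rose and 20409 fell. With hepatocyte markers 1 probe set and 0 of the 10 genes fell, 3 other negative genes fell and 2 rose, and over all 5945 rose and 437 fell. Array quality weights gave 2 other negative genes that rose. Quantile normalization, and likewise the fit without an intensity trend, left 2 probe sets and 0 of the 10 genes falling. With 1 array left out, 9 to 11 of these probe sets rose and 1 to 4 fell, 5 to 6 of the 10 genes rose and 0 to 1 fell, 2 to 4 other negative genes fell, and over all 1472 to 2814 rose and 993 to 1825 fell. The difference of Ttr and Alb was -0.40 with the mean of all Ttr probe sets. The causes were not tested. No paired analysis was possible because the labels give no replicate numbers that knockout and WT mice share. The brightest probe sets lie near the top of the recorded range, where 24 to 29 probe sets an array stand within 1 log2 of the highest.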
